A study of Zea mays with 18 samples.

Results

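Kernels of the maize inbred line JI63 were compared between 35 days after pollination (DAP 35) and maturity. The comparison used 6 of the 18 libraries in the series, chosen by their cultivar and developmental stage labels: 3 of JI63 kernels on DAP 35 (libraries 26, 27 and 29) and 3 of mature JI63 kernels (libraries 39, 40 and 41). The other libraries came from JI63 on DAP 24 and from a second inbred line, DAN3130, at the same stages, which the study set beside JI63 to follow folate accumulation late in kernel formation. Both inbred lines were grown at the same site in a single summer, and the labels give no treatment. DAP 35 kernels were frozen fresh, whereas mature kernels were harvested once the plants had yellowed. The methods of the study give 3 harvested biological replicates per stage. The methods also speak of pooled RNA without saying how pools relate to replicates, so a p-value measures the spread between these libraries, which may be partly technical.

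A maize kernel holds an endosperm that stores starch and the zein proteins, a living embryo and aleurone that store oil and globulins, and a maternal seed coat. Filling draws sugar through the basal transfer layer of the endosperm. Late in development the starchy endosperm dies, while embryo and aleurone acquire tolerance of drying under abscisic acid, with late embryogenesis abundant (LEA) proteins, dehydrins and small heat shock proteins. RNA made before drying is kept in the dry seed. In such bulk samples fewer cells of a type and less RNA per cell cannot be told apart.

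The values are normalized counts per assembled locus of the B73 genome (AGPv4), scaled by the size factors of the authors. Runs of 3 values follow the order 26, 27, 29 for DAP 35 and 39, 40, 41 for maturity. A change is a difference of mean log2(normalized count + 1), mature minus DAP 35, from a limma fit to all 6 groups of line and stage. A locus is called higher or lower when the Benjamini-Hochberg adjusted p is under 0.05 and the change is at least 2-fold. Of the 77704 loci, 29191 had a mean above 10 over the 18 libraries and were tested. Reads in loci numbered 35571187 to 133264978 in the DAP 35 libraries and 19237248 to 21412278 at maturity. Library 27 stood apart on DAP 35: its 10 highest loci took 17.65% of the counts, against 9.25% and 9.73% in the other two. It was the highest of the DAP 35 libraries at 67.1% of the loci that rose. Intron entries held 0.334% to 0.767% of counts on DAP 35 and 1.672% to 2.828% at maturity, and their part in the results was not tested. Alignment did not use strand, so reads of a gene and of an overlapping or antisense neighbour cannot be told apart.

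Loss of transcripts was the more frequent change. From DAP 35 to maturity 7294 loci fell and 4376 rose, so that 25.0% and 15.0% of tested loci were called in these directions and 40.0% in either. Library values of the groups did not overlap at 58.5% of tested loci. The falls were also the deeper ones, since 2317 loci fell and 686 rose by at least 4 on the log2 scale. Of the loci called lower, 1525 had no read in any mature library. The loci that rose took 25.5% of the counts on DAP 35 and 71.5% at maturity. Those that fell went from 28.3% to 3.76%. Among the 403 loci with a mean of at least 10000, 71.2% rose and 6.45% fell, whereas among the 8060 loci with a mean between 10 and 100 the shares were 9.81% and 30.5%. These means cover the 6 JI63 libraries, mature values included, so a locus that rises is placed higher by its own rise. The link between level and direction is thus partly built in. The median locus length was 1512 bases among those that rose, 2452.5 bases among those that fell and 1891 bases among all tested.

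**Figure D1:**
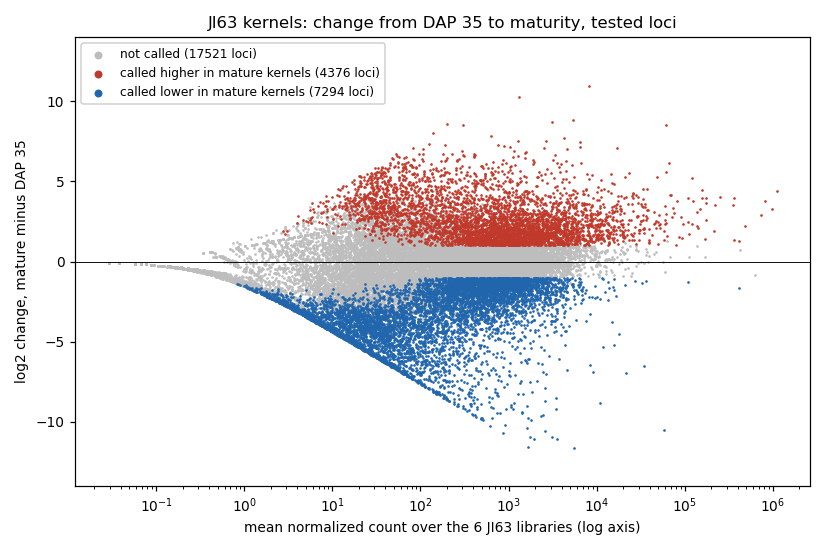
Change from DAP 35 to maturity in JI63 (y axis, log2 scale) against the mean normalized count over the 6 JI63 libraries (x axis, log scale) for 29191 tested loci, 1 point each. Red points are the 4376 loci called higher and blue points the 7294 called lower in mature kernels. The red points reach the highest levels, where the mean on the x axis itself includes the mature values. The straight lower edge is formed by loci with no reads at maturity.

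How many loci rose depended on the scale. Normalized totals were 22662777 to 28947415 on DAP 35 and 44329869 to 52884044 at maturity, since the size factors of the authors do not set totals equal. When every library was set to the same total, the changes moved by a median of -0.94, and their median was -1.18 in place of -0.36. The calls became 2126 higher and 11997 lower, and the share of calls that were higher went from 37.5% to 15.1%. All 2126 were among the 4376, all 7294 falls were called again, and no locus turned from higher to lower. With totals set equal after leaving out 299 highest loci, 3208 loci were higher and 9189 lower (25.9% higher). Equal upper quartiles gave 4715 and 6856, edgeR with TMM scaling 4421 and 6495, and DESeq2 4890 and 7122. Named rises that were not called with equal totals are pointed out where they occur.

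**Figure D2:**
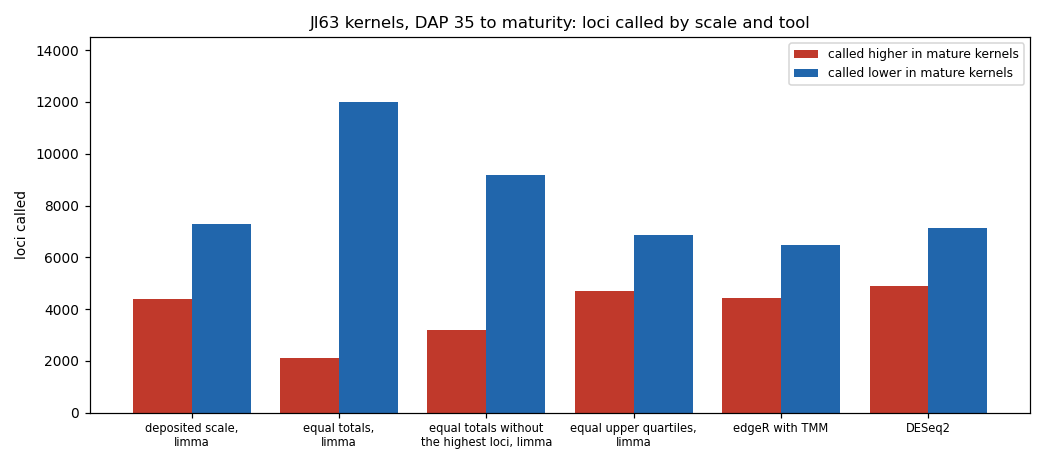
Number of loci called higher (red) and lower (blue) in mature JI63 kernels against DAP 35 under 4 scales tested with limma, and with edgeR and DESeq2. The higher calls range from 2126 with equal totals to 4890 with DESeq2, and the lower calls from 6495 with edgeR to 11997 with equal totals.

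The largest rises among named loci with a mean of at least 100, chosen without overlap between the groups, belonged to transcription factors and to structural RNA. HSF-transcription factor 12, of the heat shock factor family (chromosome 9, 71749514 to 71751360), had values of 0.520, 0 and 0 on DAP 35 and of 237, 1337 and 229 at maturity. Its DAP 35 value rests on 3 reads, and the ratio of means was 3466 with a 95% counting interval of 1186 to 16805 (log2 change 8.51, SE 1.14, adjusted p = 2.12e-05). GNAT-transcription factor 16, of a family named for acetyltransferases (chromosome 3, 226325648 to 226326241), went from 14.4, 72.4 and 19.2 to 4763, 5977 and 5285 (7.55, SE 0.88, adjusted p = 5.57e-06). AP2-EREBP-transcription factor 133 rose from 114, 387 and 84.7 to 8109, 12689 and 9715, a ratio of means of 52.1 (SE of the log2 change 0.66, adjusted p = 3.1e-06).

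Of the 12 largest rises, 8 were loci that the file names for structural RNA, with no gene identifier. Plant_SRP, the RNA of the signal recognition particle that guides secreted proteins to the membrane, accounted for 6. The highest of them, XLOC_066329, went from 198, 199 and 254 to 42309, 14196 and 43809.7 (7.10, SE 0.90, adjusted p = 1.26e-05). Mature library 40 was the lowest of the 3 there, and at XLOC_000401 it held 5004 against 15718 and 17730.3. In a list of such loci drawn up after their values were seen, 17 of 25 tested loci rose and 1 fell, with a median change of 4.31. Among all tested loci 15.0% rose and 25.0% fell. Together the loci of the list took 0.00395% to 0.00756% of the counts on DAP 35 and 0.0790% to 0.226% at maturity. These RNAs are not messengers, and whether messengers were selected before sequencing was not stated in the labels or methods read here.

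Among the 12 largest falls stood genes of the endosperm and several regulators. NAC-transcription factor 130 (chromosome 8, 7618650 to 7621317) had the largest fall of all tested loci: 12187, 13436 and 7675 on DAP 35 against 0, 35.2 and 0 at maturity (-11.67, SE 1.48, adjusted p = 1.34e-05). tryptophan aminotransferase related1, of the family that makes auxin from tryptophan, went from 6700.4, 5864 and 6103 to 0, 29.0 and 0 (-10.97, SE 1.52, adjusted p = 2.95e-05). Zea mays MADS6 and Zea AGAMOUS homolog2 encode MADS-box factors, a family best known from flowers and ovules. MADS6 fell from 3097, 4235 and 3057 to 0, 4.14 and 0. Its mature value rests on 2 reads, for a ratio of 2509 with a 95% counting interval of 694.6 to 20718. Zea AGAMOUS homolog2 fell from 1707, 1515 and 1593 to 0, 10.4 and 0 (-9.48, SE 1.09, adjusted p = 5.26e-06).

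A further 3 genes of this set had no read in any mature library: cl22897_1a was at least 419-fold lower, beta glucosidase1, which releases benzoxazinoid and cytokinin glucosides, at least 429-fold and bHLH-transcription factor 167 at least 354-fold. These bounds set 3 reads over the group, or 2.34 normalized counts, as the floor, and they cover counting error only. benzoxazinone synthesis13, of the pathway of benzoxazinoid defence compounds, fell from 2155, 4257 and 2023 to 0, 53.8 and 0 (-9.45, SE 1.39, adjusted p = 5.17e-05). In all 9 largest falls that kept reads at maturity, mature library 40 held the most, while over all 5769 falls with reads it did so at 33.0%.

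**Figure D3:**
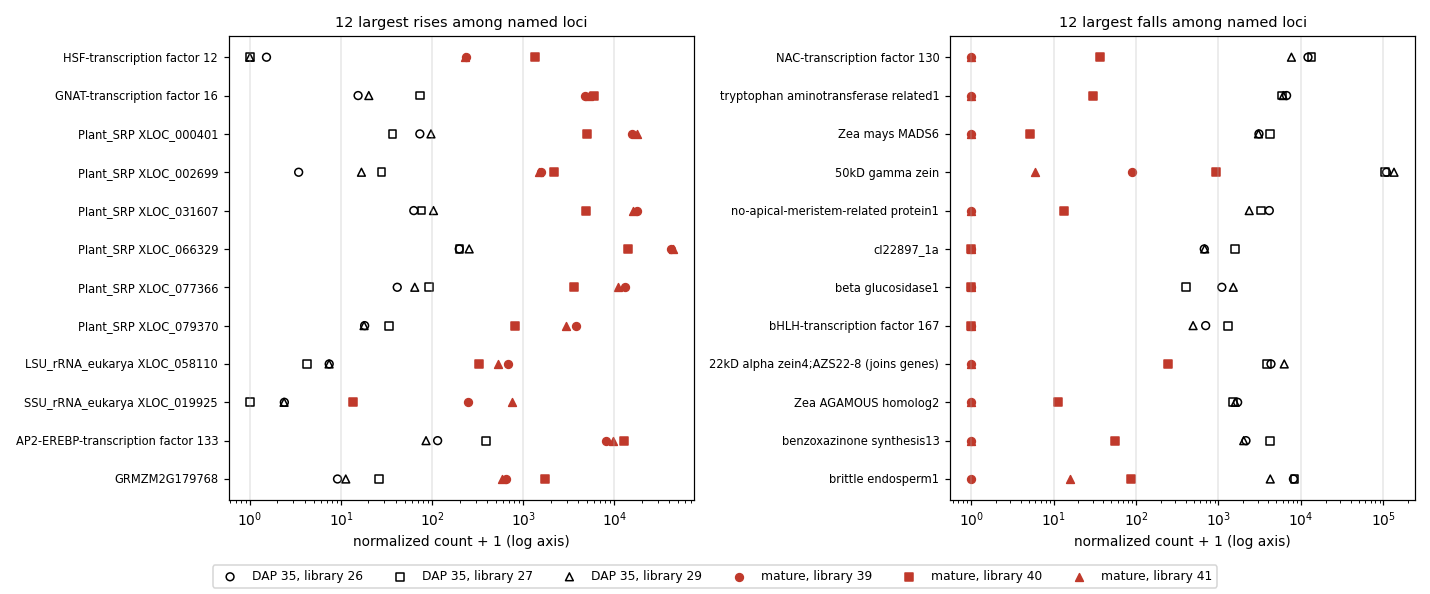
Normalized count + 1 (x axis, log scale) in each JI63 library for the 12 largest rises (left) and the 12 largest falls (right) among named loci. Open black symbols are the DAP 35 libraries and filled red symbols the mature libraries; the loci were chosen without overlap between the groups, and in the right panel the filled squares of library 40 lie to the right of the other mature libraries wherever that gene kept reads.

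Transcripts of the endosperm storage proteins were nearly gone at maturity. Of 15 loci for zeins and their regulators 8 were tested, 7 fell and none rose, against 25.0% and 15.0% of all tested loci. Their median change was -6.86, against -0.36 over all tested loci. 50kD gamma zein (chromosome 7, 123954068 to 123955705) had counts of 109157, 105255 and 134700.3 on DAP 35 and of 87.7, 921 and 4.87 at maturity (-10.53, SE 1.29, adjusted p = 9.51e-06). zein protein, 15kDa15, a beta zein, fell from 42399, 61629 and 24251 to 170.3, 1317 and 151 (-6.94, SE 0.87, adjusted p = 1.12e-05). The locus of 22kD alpha zein4 joins that gene with AZS22-8 and fell from 4333, 3908 and 6275 to 0, 240.2 and 0. opaque endosperm2, the bZIP activator of zein genes, fell by 7.26 on the log2 scale, and prolamin-box binding factor1, its partner at zein promoters, fell by 2.11. The whole list took 0.599% to 0.743% of the counts on DAP 35 and 0.00123% to 0.00677% at maturity, with the highest mature share in library 40. Without DAP 35 library 27 the list had 6 falls.

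Starch synthesis genes followed the zeins, with 17 of 20 tested members lower and none higher, against 25.0% and 15.0% of all tested loci. Their median change was -2.27. shrunken2 and brittle endosperm2, the subunits of the endosperm ADP-glucose pyrophosphorylase that makes the sugar donor for starch, fell side by side. shrunken2 (chromosome 3, 219979958 to 219991608) went from 22422, 14702 and 17531 to 111, 228 and 124 (-6.93, SE 0.35, adjusted p = 2.96e-09). brittle endosperm2 went from 24357, 11124 and 14474 to 124, 263 and 166 (-6.48, SE 0.42, adjusted p = 2.13e-08). brittle endosperm1, the transporter that brings ADP-glucose into the amyloplast, went from 8117, 8373 and 4247 to 0, 84.9 and 14.6 (-9.23, SE 1.10, adjusted p = 7e-06). waxy1, the starch synthase that makes amylose, fell by 7.92 on the log2 scale. ADP glucose pyrophosphorylase small subunit embryo 1 fell from 8538, 7178 and 9449.5 to 3584, 4486 and 4403 (-1.01, SE 0.14), a change at the limit of 2-fold that edgeR, equal upper quartiles and 3 of the fits without a library did not call. starch branching enzyme3 had a change of -0.84 (SE 0.20) and passed only the limit on p.

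Sugar supply split by gene. In the list of sucrose cleavage and sugar transport, 16 of 31 tested members fell and 5 rose, against 25.0% and 15.0% of all tested loci. With equal totals 19 members fell and 3 rose. shrunken1, the main sucrose synthase of the endosperm, fell from 36006, 24390.0 and 23089 to 2356, 1816 and 1818 (-3.78, SE 0.35, adjusted p = 6.52e-07). sucrose synthase1 fell from 11932, 10643 and 9228 to 3517, 2077 and 3386 (-1.86, SE 0.24, adjusted p = 1.73e-05). sucrose synthase2, at a locus that joins 2 genes, had 9941, 9219 and 12029 against 11293, 10142 and 10055, and its groups overlapped (0.02, SE 0.17). SWEET genes, which code for sugar exporters, went both ways. sugars will eventually be exported transporter12a rose from 303, 274 and 341 to 3615, 1211 and 2914 (2.93, SE 0.35, adjusted p = 6.96e-06), and transporter15b rose from 101, 145 and 101 to 637, 1058 and 662 (2.74, SE 0.37). transporter4b fell from 513, 824 and 861 to 403, 226 and 379.7 (-1.13, SE 0.35), a call lost in 4 fits that left out libraries, such as that without DAP 35 library 27 (-1.03).

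Listed genes of the transfer layer and embryo surrounding region had no reads at maturity: all 11 tested members were at 0 in the 3 mature libraries, and 6 of them were called lower. Among all 29191 tested loci 3776 had no read at maturity, and 25.0% were called lower. miniature seed1, the cell wall invertase of the transfer layer, had 154, 226 and 39.5 on DAP 35 and was at least 59.8-fold lower at maturity. basal endosperm transfer layer9 had 182, 77.3 and 63.7 and was at least 46.1-fold lower. Levels were already low on DAP 35, where the list took 0.000860% to 0.00196% of the counts. The mature libraries also had fewer reads in loci, and the part of depth in these zeros was not tested.

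Genes of drying tolerance were among the most abundant at maturity. dehydrin1 (chromosome 6, 141324495 to 141325633), a dehydrin induced by abscisic acid and drying, was the highest locus at maturity. Its counts were 75387, 141102 and 86678 on DAP 35 and 2252376, 1506757 and 2560591 at maturity, a 20.8-fold ratio of means (4.40, SE 0.30, adjusted p = 3.37e-08). responsive to abscisic acid15 rose from 34076, 74349 and 27695 to 1032650.5, 409853 and 602874 (3.94, SE 0.41, adjusted p = 1.72e-06). The LEA and dehydrin list as a whole rose in 4 and fell in 2 of 7 tested members, against 15.0% and 25.0% of all tested loci. With equal totals 2 members rose and 2 fell, and the median of 1.04 became 0.09. The share of this list in all counts went from 0.697%, 1.02% and 0.755% to 6.47%, 4.57% and 7.03%. Both falls were of dehydrins with low levels at maturity: dehydrin13 went from 2895, 2502 and 2592 to 0, 74.5 and 34.1 (-7.59, SE 1.30, adjusted p = 0.00021), and dehydrin14 was at least 8.17-fold lower, from a mean near 19.1. lea protein group3 rose by 1.04 (SE 0.30) on the deposited scale, but by 0.09 with equal totals, where it was not called.

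**Figure D4:**
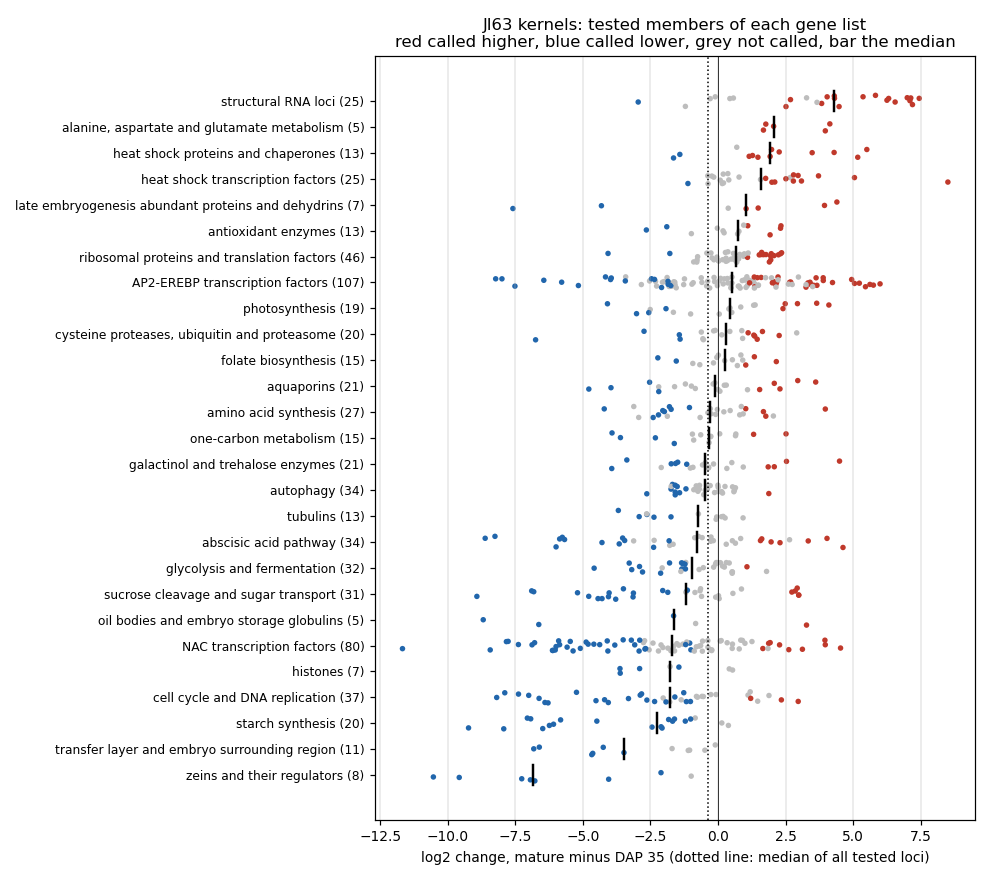
Change from DAP 35 to maturity (x axis, log2 scale) of every tested member of the 27 gene lists, with the number tested in brackets. Red points are called higher, blue lower and grey not called; black bars are list medians, from -6.86 for zeins to 4.31 for structural RNA, and the dotted line is the median of all tested loci.

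Oil bodies and globulins parted ways. oleosin1, the coat protein of seed oil bodies, went from 137635, 367020.1 and 113458 to 2062156, 1694695 and 1494225 (3.28, SE 0.46, adjusted p = 3.6e-05). globulin1, the vicilin-like storage protein of the embryo, went the other way, from 421298, 1077364 and 381807 to 318338, 94987 and 189213 (-1.64, SE 0.49, adjusted p = 0.012). That fall rests on single libraries, since it was not called without DAP 35 library 27 (-1.17), without mature library 40 (-1.18) or without both (-0.71). globulin2, the highest locus on DAP 35, had 619625, 1355675 and 516783 against 514706, 374163 and 405068. Its change of -0.83 (SE 0.34, adjusted p = 0.0612) was not called, but was with equal totals (-1.78). globulin3 fell from 4898, 7700.1 and 2637 to 0, 108 and 12.2 (-8.68, SE 1.25, adjusted p = 4.27e-05), and legumin1 from 1073, 2108 and 737 to 0, 26.9 and 60.9 (-6.63, SE 0.99). Storage globulins were thus high on both dates for some members and nearly unread at maturity for others.

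Other loci at the top of the mature libraries included metallothionein2, embryo specific protein1 and a pair of defensins. metallothionein2, a small protein that binds metal ions, rose from 79523, 231839 and 65772 to 1948579.6, 1112973 and 1382863 (3.76, SE 0.47, adjusted p = 1.18e-05). embryo specific protein1 rose from 150241, 225031 and 134644 to 1602603, 917986 and 1366447 (2.93, SE 0.21, adjusted p = 6.33e-08). defensin-like protein1, a small antimicrobial protein, rose from 126159.6, 281877 and 140001 to 845287, 666136 and 836817 (2.19, SE 0.32, adjusted p = 4.84e-05). In each of these 3 genes library 27 was the highest on DAP 35 and library 40 the lowest at maturity, and the groups did not overlap. defensin-like protein2 (1.29) and chitinase B1 (1.37) were called on the deposited scale but not with equal totals (0.34 and 0.41). A fit of the 6 compared libraries alone did not call dehydrin1 (adjusted p = 0.0601), oleosin1 (0.196), metallothionein2 (0.0789), embryo specific protein1 (0.166) or defensin-like protein1 (0.206), with the same changes.

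Most chaperones rose. Of 13 tested heat shock proteins and chaperones 10 rose and 2 fell, against 15.0% and 25.0% of all tested loci. Their median change was 1.93, and with equal totals 5 rose and 2 fell. heat shock protein, 90 kDa, a chaperone of signalling proteins, rose from 12186, 16767 and 9030.1 to 48569, 53118 and 44304 (1.98, SE 0.34, adjusted p = 0.000185). chaperone DNA J2, a cochaperone of HSP70, rose from 53597, 42855 and 49506 to 133743, 126891 and 145301 (1.48, SE 0.11, adjusted p = 6.85e-08) and was not called with equal totals (0.53). Small heat shock proteins had the steepest changes, heat shock protein18c with 5.51, heat shock protein18f with 5.17, the locus of 18 kda heat shock protein18a and HSP18 with 4.30 and heat shock protein26 with 3.49. Both falls were of chaperonins, the barrel-shaped folding machines of organelles: chaperonin 1 went from 5989, 4880.3 and 5946 to 2072, 1592 and 1728 (-1.64, SE 0.29), and chaperonin2 from 3277, 2567 and 3027 to 975, 1408 and 988 (-1.41, SE 0.23). Their groups did not overlap. Not all chaperonins fell: chaperonin10, of the same list, was called higher on the deposited scale (1.93). Its call with equal totals is not given here.

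Heat shock factors, the activators of heat shock genes, rose in 11 and fell in 1 of 25 tested members (9 and 4 with equal totals). Their median was 1.58, and 15.0% and 25.0% of all tested loci rose and fell. HSF-transcription factor 11 rose from 2782, 3352 and 2816 to 13577, 13479.7 and 11387, a ratio of means of 4.30 (SE of the log2 change 0.13, adjusted p = 1.98e-08). HSF-transcription factor 7 rose from 841, 1685 and 458 to 6146, 8196 and 6163 (2.97, SE 0.34, adjusted p = 4.85e-06). The single fall, HSF-transcription factor 21 (-1.11, SE 0.44, adjusted p = 0.0489), lost its call in 12 alternatives.

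Other transcription factor families were mixed. Of 107 tested AP2-EREBP factors, which include the ethylene response and drought response factors, 29 rose and 16 fell, and 62 were not called. Among all tested loci 15.0% rose and 25.0% fell. The balance of the AP2-EREBP list turned with equal totals, to 18 higher and 23 lower, and its median went from 0.52 to -0.17. Library 27 was the highest DAP 35 library for 97 members of this list, and without it 37 rose and 11 fell. AP2-EREBP-transcription factor 122 shows the pattern: 91.1, 2346 and 122 on DAP 35 against 21312, 15430.0 and 6879 at maturity (5.46, SE 1.38, adjusted p = 0.0043). NAC factors, several of which act in endosperm filling and senescence, fell in 34 and rose in 9 of 80 tested members (45 and 5 with equal totals), with a median of -1.69. NAC-transcription factor 38 fell from 7898, 6219.8 and 9058 to 851, 1056 and 818 (-3.08, SE 0.23, adjusted p = 7.9e-08). NAC-transcription factor 49 rose from 438, 886 and 575 to 9134, 9629 and 9576 (3.96, SE 0.33, adjusted p = 2.43e-07), with no overlap.

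The abscisic acid list held changes in both directions, 7 higher and 12 lower of 34 tested (3 and 18 with equal totals), where 15.0% and 25.0% of all tested loci did so. The falls included abscisic acid stress ripening1 (-8.61), 3 (-5.76), 5 (-3.65), 7 (-3.45) and 9 (-5.99). Those numbered 2 (-3.12) and 6 (-1.66) were not called, and none of this group rose. viviparous1, the seed activator that works with abscisic acid, rose from 2728, 5368 and 2420.2 to 16748, 15803 and 15895 (2.30, SE 0.32, adjusted p = 3.36e-05). Of the 4 tested 8'-hydroxylases, which inactivate the hormone, 1 rose and 3 fell. abscisic acid 8'-hydroxylase2 rose from 669, 952 and 745 to 14885, 18322 and 26337 (4.63, SE 0.37, adjusted p = 1.39e-07), whereas abscisic acid 8'-hydroxylase3 fell from 2369.9, 2757 and 2557 to 0, 18.6 and 29.2 (-8.25, SE 1.20, adjusted p = 4.63e-05). nine-cis-epoxycarotenoid dioxygenase4, of the family that opens hormone synthesis, had 886, 4888 and 869 against 5689, 1145 and 3323. Library 27 was above 2 of the mature values there, and the change of 0.84 (SE 0.67) was not called. Without library 27 it was 1.67 and called. Other members of that name went both ways: dioxygenase2 rose by 4.04 and dioxygenase5 fell by 5.86, both called. Those numbered 3 (2.65), 6 (-0.72) and 9 (-2.36) were not called.

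galactinol synthase3, which opens the raffinose pathway, rose from 1025, 1704 and 609 to 23779, 25581 and 20281 (4.50, SE 0.41, adjusted p = 5.77e-07). Of the 21 tested galactinol and trehalose genes 4 rose and 6 fell (1 and 8 with equal totals), shares close to the 15.0% and 25.0% of all tested loci. trehalose-6-phosphate synthase12 fell from 1144, 1246 and 1119.5 to 415, 369 and 285 (-1.73, SE 0.23). Among 13 tested antioxidant genes 4 rose and 2 fell, against 2 higher and 3 lower with equal totals. The locus of thioredoxin h homolog1, a disulfide reductase, joins 2 genes and rose from 2647, 2896 and 2851 to 13499, 16231 and 12319 (2.32, SE 0.18, adjusted p = 9.76e-08). monodehydroascorbate reductase homolog1, which regenerates ascorbate, fell from 4979.7, 4769 and 5842 to 799.9, 971 and 723 (-2.65, SE 0.16, adjusted p = 1.04e-08).

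Aquaporins, the water channels, rose in 5 and fell in 4 of 21 tested loci, against 15.0% and 25.0% of all tested loci, and 4 were higher and 8 lower with equal totals. A locus named tonoplast intrinsic protein3 (Zm00001d013956), in the vacuole membrane, rose from 34217, 116451 and 34238 to 237865, 172775 and 253272 (2.08, SE 0.54, adjusted p = 0.0053), which a fit of the 6 libraries alone did not call (adjusted p = 0.0559). Another of that name (Zm00001d032610) had 482, 5949 and 497 against 15148, 13658 and 12759.8 (3.62, SE 0.74, adjusted p = 0.000934). TIP1-1, an aquaporin by its name that the list did not hold, rose from 38253, 126811 and 33624 to 784189, 577850.1 and 545715 (3.52, SE 0.46, adjusted p = 1.57e-05). Library 27 was again the highest DAP 35 library for all 3.

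Genes of cell division were more often lower. Of 37 tested cell cycle and replication genes 21 fell and 3 rose, with a median of -1.78, against 25.0% and 15.0% of all tested loci. The rises included 2 inhibitors of cyclin-dependent kinases: cyclin-dependent kinase inhibitor2 went from 282, 289 and 292 to 2258, 2579.6 and 1984 (2.97, SE 0.21, adjusted p = 5.41e-08), and cyclin-dependent kinase inhibitor1 from 117, 121 and 131 to 506, 634 and 781 (2.35, SE 0.27). Histones fell in 4 of 7 and tubulins in 5 of 13 tested members, none rising, where 25.0% of all tested loci fell. alpha tubulin4 fell from 9555, 12146 and 7765 to 1672, 1857 and 1224 (-2.63, SE 0.31, adjusted p = 6.67e-06). histone1a, a linker histone, fell from 6556, 16209.8 and 5809 to 3465, 1917 and 4610.3 (-1.44, SE 0.35), a call lost without DAP 35 library 27 (-0.98). Without that library 2 histones fell.

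Translation genes stayed or rose on the deposited scale, with 15 of 46 tested members higher and 2 lower (median 0.66). On that scale 15.0% of all tested loci were higher and 25.0% lower. With equal totals 6 translation genes were higher and 9 lower (median -0.29). translation initiation factor1 rose on either scale, from 40472, 41841 and 37441 to 244550.3, 192149 and 166580.5 (2.32, SE 0.14, adjusted p = 1.45e-08). 60S acidic ribosomal protein P0, of the ribosomal stalk, rose from 11611, 13299.7 and 10498 to 41321, 70429.6 and 33710.4 (1.97, SE 0.22, adjusted p = 4.19e-06). elongation factor 1-alpha9 had a change of -0.41 (SE 0.23) and was called only with equal totals (-1.36) of these 2 scales.

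Genes of energy metabolism were more often lower: of 32 tested glycolysis and fermentation genes 13 fell and 1 rose. Their median was -0.94, and 25.0% and 15.0% of all tested loci fell and rose. aldolase1 fell from 26816, 25530.2 and 21640.0 to 7405, 7140.5 and 6767 (-1.79, SE 0.17, adjusted p = 7.82e-07). alcohol dehydrogenase1, which serves fermentation, fell from 46241, 52017 and 42500.2 to 19137, 15743 and 21104 (-1.34, SE 0.22, adjusted p = 0.00015). The rise, pyruvate decarboxylase2, went from 2255, 2653 and 2140.4 to 4706, 4666 and 5440.3 (1.07, SE 0.24) and was not called with equal totals (0.12).

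Autophagy genes fell in 9 and rose in 1 of 34 tested members, a share of falls close to the 25.0% of all tested loci, and 19 were lower and 0 higher with equal totals. autophagy8e, a ubiquitin-like protein of the autophagosome membrane, fell from 2419, 2805 and 3164 to 993, 793 and 1017 (-1.58, SE 0.27). In the list of cysteine proteases, ubiquitin and proteasome genes 6 of 20 rose and 4 fell, where 15.0% and 25.0% of all tested loci did so. Equal totals gave 1 higher and 9 lower. cysteine protease3 fell from 4577, 6226 and 3807 to 872, 474 and 886 (-2.73, SE 0.31, adjusted p = 4.27e-06), and small ubiquitin-related modifier1a rose from 2814, 4021 and 2504 to 15177, 15637 and 13278 (2.27, SE 0.22, adjusted p = 1.14e-06). In the photosynthesis list, members other than ferredoxin3 were low on both dates. The list was drawn by gene name, and ferredoxin3 is not shown to mark green tissue. Of its 19 tested members 5 rose and 4 fell (3 and 5 with equal totals), where 15.0% and 25.0% of all tested loci did so. The list took 0.0740% to 0.0871% of the counts on DAP 35 and 0.172% to 0.247% at maturity, and without DAP 35 library 27 none fell. Nearly all of these counts were of ferredoxin3, an electron carrier, with 19618, 20369 and 16691 against 116765, 74775 and 113998 (2.41, SE 0.20, adjusted p = 2.32e-07). The whole list summed to 20132, 21432 and 17251 on DAP 35 and to 118783, 76206 and 115602 at maturity. Its shares therefore mostly follow ferredoxin3. ribulose bisphosphate carboxylase small subunit1, the defining leaf marker, had 35.0, 114 and 27.2 against 25.8, 0 and 7.30.

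Folate was the subject of the study, and all 15 genes that it lists for folate biosynthesis were tested. Folates are built in plastids, cytosol and mitochondria from a pterin, p-aminobenzoate and glutamate, and carry single-carbon units. ADCS, the aminodeoxychorismate synthase that opens the p-aminobenzoate branch (chromosome 6, 90182195 to 90188081), rose from 673, 557 and 853 to 2619, 2809 and 3889.8 (2.16, SE 0.21, adjusted p = 1.16e-06). ADCL1, the lyase that follows it, had 2448, 2378 and 2957 against 2464, 2348 and 2731, and the groups overlapped (-0.04, SE 0.27). In the pterin branch the cyclohydrolases GCHI-1 (0.53) and GCHI-2 (0.85) were not called. DHNA1, an aldolase of that branch, rose from 257, 417 and 202 to 779, 716 and 645 (1.35, SE 0.36, adjusted p = 0.00658), though not with equal totals (0.40). DHNA2, the other listed aldolase, was not called in JI63, and its change was below that of DAN3130 (difference -2.77, called).

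Where the branches meet, HPPK/DHPS, which couples pterin and p-aminobenzoate, fell from 927, 608 and 1033 to 245, 101 and 226 (-2.22, SE 0.54, adjusted p = 0.00339). The polyglutamate synthetases, which add the glutamate tail, went opposite ways. FPGS1 (Zm00001d032529, in the file folylpolyglutamate synthetase2) rose from 776, 594 and 753 to 1566, 1596 and 1183 (1.03, SE 0.22), at the limit of the call and not called with equal totals (0.08). FPGS2 (brown midrib4) fell from 2684, 1998 and 2734 to 799.9, 636 and 1166 (-1.54, SE 0.27, adjusted p = 0.000271). In all 3 of the 15 rose and 2 fell, where 15.0% and 25.0% of all tested loci did so, with a median of 0.25. Equal totals gave 1 higher and 5 lower, with a median of -0.70.

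In one-carbon metabolism, where folates are used, 4 of 15 listed genes fell and 2 rose, shares close to the 25.0% and 15.0% of all tested loci. Equal totals gave 10 lower and 0 higher. The deepest falls were of genes that make or use 5-methyl-tetrahydrofolate. MS2, a methionine synthase (chromosome 5, 16104795 to 16110218), fell from 7691, 6432 and 8273 to 599, 439 and 448 (-3.92, SE 0.20, adjusted p = 2.34e-09). MTHFR1 (brown midrib2), the reductase that makes its methyl donor, fell from 6369, 5763 and 7762 to 557, 563 and 499 (-3.61, SE 0.15, adjusted p = 6.36e-10). MS1, the other methionine synthase of this list, rose from 44.8, 73.2 and 45.7 to 369, 302 and 265 (2.52, SE 0.78, adjusted p = 0.0154). This did not bring MS1 to the mature level of MS2, and it was not called with equal totals (1.58) or without DAP 35 library 26 (2.40). The study names further methionine synthases, which were not followed here. glycine decarboxylase1, a protein of the glycine cleavage system of mitochondria, fell from 2953, 3613 and 3017 to 601, 594 and 730.2 (-2.31, SE 0.30, adjusted p = 1.57e-05). GCSH2 of the same system fell by 1.62 (SE 0.50), a call lost in 2 alternatives, and SHMT7-1, a serine hydroxymethyltransferase, had counts of 875, 958 and 905 against 944, 944 and 976 (0.07, SE 0.18).

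All 5 genes that the study picked for alanine, aspartate and glutamate metabolism rose, with a median of 2.06. The study chose this list on these libraries, so its direction is not independent evidence. glutamate decarboxylase, which makes gamma-aminobutyrate, rose from 16079, 25716 and 14100.0 to 88174, 62479.6 and 76773 (2.06, SE 0.25, adjusted p = 9.75e-06). asparagine synthetase3 rose from 912, 1427 and 994 to 16095, 17846 and 17482 (3.97, SE 0.61, adjusted p = 7.58e-05). In the wider list of amino acid synthesis 4 of 27 rose and 8 fell (1 and 16 with equal totals). These shares were close to the 15.0% and 25.0% of all tested loci. asparagine synthetase1 fell from 2033, 1705 and 2157 to 593, 617 and 555 (-1.73, SE 0.16, adjusted p = 5.2e-07). With equal totals asparagine synthetase2 (0.82) and glutamine synthetase5 (0.73), both of the 5, were not called.

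The same interval in DAN3130 gave 4714 loci higher (16.1%) and 8324 lower (28.5%). The loci called higher in both lines numbered 2578, which is 58.9% of those in JI63 and 54.7% of those in DAN3130. For loci lower in both, 4615, the shares were 63.3% and 55.4%, and 154 were called in opposite directions. The spread of mature DAN3130 libraries was wider, with a root mean square SD of 1.97 on the log2 scale against 1.19 in mature JI63. The difference between the lines in the change was tested in the same fit, and 2156 loci (7.39%) had a JI63 change above and 1666 (5.71%) below that of DAN3130. Of these, 126 and 213 had no read in the 6 DAN3130 libraries, and 107 and 173 none in the 6 JI63 libraries. With equal totals the calls were 1497 above and 2465 below.

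**Figure D5:**
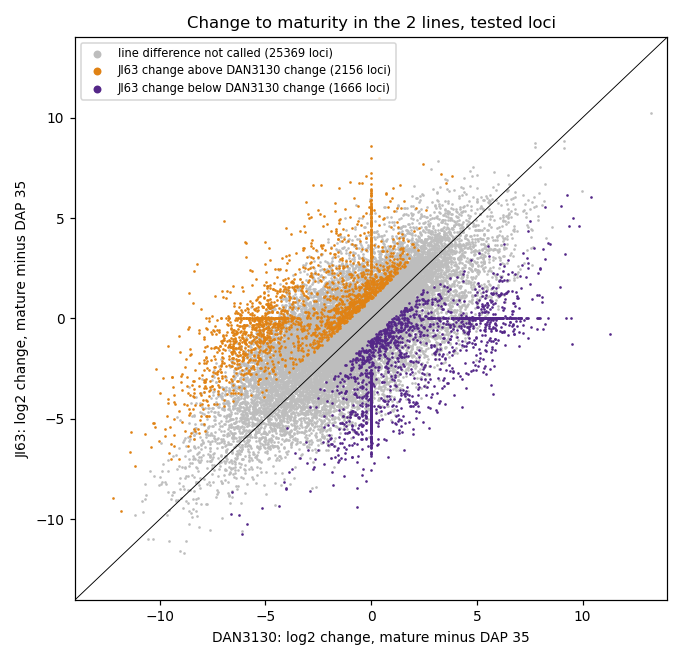
Change from DAP 35 to maturity in JI63 (y axis, log2 scale) against the change in DAN3130 (x axis, log2 scale) for 29191 tested loci. Orange points are the 2156 loci with a JI63 change above that of DAN3130, violet points the 1666 below it; loci on the lines at 0 have no reads in a line, and most others lie along the diagonal.

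glossy2, an acyltransferase-family gene of cuticular wax (chromosome 2, 10743240 to 10746373), was one of the 5 named loci whose change stood furthest above that of DAN3130. It went from 455, 1536 and 356 to 15362, 10573 and 17265 in JI63 (4.48, SE 0.88, adjusted p = 0.000661), while the change in DAN3130 was -4.04, for a difference of 8.53 (adjusted p = 0.000367). NAC-transcription factor 98 differed by 9.85 (adjusted p = 2.89e-05), with 21.3, 17.1 and 12.8 against 41.3, 10.4 and 158 in JI63 and a DAN3130 change of -8.59. That gene was not called in JI63 on the deposited scale, but was by DESeq2 (2.05), by edgeR (2.02) and without mature library 40 (2.21). H3C2 was lost in JI63, from 276, 599 and 242 to no reads, at least 159-fold lower, while its change of -0.69 in DAN3130 was not called, and the difference was called (adjusted p = 4.81e-05).

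Several lists fell less in JI63 than in DAN3130 on the deposited scale. Over all tested loci 7.39% had a JI63 change above and 5.71% below that of DAN3130, a balance that turned with equal totals (1497 above, 2465 below). List counts of the line difference with equal totals are not given here. For tubulins 8 of 13 tested members had a JI63 change above that of DAN3130 and none below, with medians of -0.72 and -4.04. For glycolysis and fermentation it was 10 of 32 and none, with medians of -0.94 and -2.1. alpha tubulin2 had 31715, 34277 and 27110.1 against 22321, 16719.8 and 17596 in JI63 (-0.72, SE 0.19, called only when totals were set equal), a DAN3130 change of -2.97 and a difference of 2.25 (adjusted p = 8.16e-05). pyruvate decarboxylase2, which rose in JI63, changed by -2.21 in DAN3130, for a difference of 3.28 (adjusted p = 3.1e-05). shrunken1 fell by 6.14 in DAN3130, and the difference was 2.36 (adjusted p = 0.00545). oleosin1 differed by 2.24 (adjusted p = 0.0323), a call lost in 10 alternatives.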

How the data were processed

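RNA-seq of whole kernels gave 18 libraries in 6 groups of line and stage, of which the 6 JI63 libraries on DAP 35 and at maturity were compared. The authors aligned reads to B73 AGPv4 with HISAT2 2.1.0 without strand, assembled loci with Cufflinks 2.2.1 and Cuffcompare 2.2.1 and counted with HTSeq 0.11.2, per the labels, the processing notes and the study's methods. The deposited values are normalized counts per locus (a signal, counts divided by DESeq2 size factors by the authors). Whole reads were recovered for 100.0% of values and served the edgeR and DESeq2 alternatives. Introns, 26258 entries, were left out. Loci with a mean above 10 over all libraries were tested on log2(value + 1) with limma 3.58.1 (trend, two-sided, 6 groups in one fit, R 4.3.3), with Benjamini-Hochberg adjustment over 29191 loci. edgeR 4.0.16 and DESeq2 1.42.0, other scales, filters, pseudocounts and left-out libraries were alternatives; leaving out libraries 27 and 40 together, equal totals without the highest loci and the structural RNA list were chosen after seeing the data. On simulated data the fit called 12% of true 2-fold changes, 58% of 4-fold, 68% of 8-fold and 88% of 16-fold changes, and 0.08% of unchanged loci. A locus that was not called is therefore not shown to be unchanged.

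Named loci were the 12 largest rises and falls among named loci with a mean of at least 100 and no overlap, the 3 highest called members each way and the highest uncalled member of each list, the folate and glutamate genes of the study, the 10 highest loci per group, and the 5 largest line differences each way. Other members given only by their change were chosen after their values were seen. They are opaque endosperm2, prolamin-box binding factor1, waxy1, the small heat shock proteins, chaperonin10 and the abscisic acid stress ripening genes. Comparison, lists and rule were chosen with earlier results of these data known. Intervals and floors of 3 reads cover counting error only.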

Additional observations from a re-analysis of the deposited data

Results flagged for a closer look

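The change from DAP 35 to maturity differed between the lines for 45 of the 206 named loci. The test was that of the difference in the limma fit. Some of these loci were named for the size of this difference, so the count of 45 is partly built in. It cannot show whether named loci differed more often than others. Over all tested loci 7.39% had a JI63 change above and 5.71% below that of DAN3130. Values are the JI63 change minus the DAN3130 change on the log2 scale, and 27 of the 45 lost the call under at least 1 alternative.

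The largest differences above DAN3130 were of NAC-transcription factor 98 (9.85), alpha expansin1 (9.17), GRAS-transcription factor 76 (8.94), glossy2 (8.53) and double B-box zinc finger protein6 (8.50). The largest below it were of H3C2 (-7.73), BURP domain-containing protein-RD22-like5 (-7.07, with no JI63 reads on either date), maternally expressed gene14 (-6.90), bZIP-transcription factor 111 (-6.75), phenylalanine ammonia lyase5 at a locus that joins 2 genes (-5.11) and the Plant_SRP locus XLOC_079371 (-5.00). Another Plant_SRP locus, XLOC_002699, differed by 3.91.

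Storage and sugar genes that differed were oleosin1 (2.24), globulin2 (2.01), shrunken1 (2.36), sucrose synthase1 (1.38), ADP glucose pyrophosphorylase small subunit embryo 1 (-1.05) and the sugar exporters 12a (-1.78) and 15b (3.32). In cell division and the cytoskeleton they were cyclin-dependent kinase inhibitor2 (1.88), cell division cycle202 (-1.29), alpha tubulin4 (2.00), alpha tubulin2 (2.25), histone1a (2.03) and histone2b1 (1.74). In translation and protein turnover they were 60S acidic ribosomal protein P0 (1.58), elongation factor 1-alpha9 (1.24), ubiquitin conjugating enzyme4 (1.66), small ubiquitin-related modifier1a (1.02) and small ubiquitin-related modifier1b (1.18). Transcription factors were bHLH-transcription factor 167 (2.27), NAC-transcription factor 90 (2.79), AP2-EREBP-transcription factor 14 (-1.11) and AP2-EREBP-transcription factor 102 (-3.46).

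In energy and redox metabolism pyruvate decarboxylase2 (3.28), pyruvate decarboxylase3 (1.03), superoxide dismutase3 (1.30) and ferredoxin3 (1.68) differed. Of the folate and one-carbon genes these were ADCL1 (1.46), DHNA2 (-2.77), glycine decarboxylase1 (1.78), glycine1 (1.43) and MS2 (1.15). Among the most abundant loci phospholipid transfer protein homolog1 (2.13) and Zm00001d008620 (1.69) differed.

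Outside the loci compared, intron entries held a mean of 2.41% ± 0.639 (SD, n = 3) of all counts in mature JI63 kernels, against 0.591% ± 0.227 on DAP 35.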

How the results depend on the processing

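No paired analysis was possible because the library numbers are not shared between groups. With equal totals 2126 loci were higher and 11997 lower in mature JI63 kernels. Leaving out 1 library gave 9786 to 11121 calls, 3719 to 4405 higher and 6067 to 6894 lower. The line difference moved more: it had 1867 calls with edgeR (1172 above, 695 below), 1990 in a fit of the 12 libraries (1155 and 835), 2415 among loci with a gene identifier (765 below) and 7351 at an unadjusted p under 0.05 (4017 and 3334). Calls below were 2656 with a mean above 1 and 2928 with no filter. Leaving out 1 library gave 2666 to 6900 line-difference calls (1537 to 4344 above, 1129 to 2556 below), the most without mature DAN3130 library 35 and the fewest without DAP 35 JI63 library 29. With equal totals 37.8% of its calls were above, against 56.4%. The cause was not tested. Of 156 named loci called in JI63, 49 lost the call under at least 1 alternative, 25 of them with equal totals and 18 in a fit of the 6 libraries. No called change of a named locus reversed under the alternatives run, while uncalled changes near 0 turned negative with equal totals, as for GCHI-1 (0.53 to -0.42). At maturity 3 reads over the group, or 2.34 normalized counts, limit what can be seen.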
